A study of Mus musculus with 12 samples.

Results

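Dentate granule neuron and neurogenesis genes were followed as 8 rows of the hippocampal expression table, chosen by name and not by a cut on their values. They are 6 genes that mark granule neurons of the dentate gyrus (Prox1, Dsp, C1ql2, C1ql3, Stxbp6 and Trpc6) and 2 genes used to follow the birth of new neurons (Dcx and Neurod1). All 8 were among the 27833 genes in the table, and 8 of 8 had a mean of at least 0.5 FPKM (fragments per kilobase of transcript, scaled to the depth of the library, a level per length), which left 13796 genes for testing. The question was whether pyrroloquinoline quinone (PQQ), a redox-active compound found in food, was accompanied by a difference in these genes in the aged hippocampus.

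The study used wild-type male C57BL/6J mice aged 20 months, gavaged for 14 days with 0.2 mL normal saline, and 6 mice were assigned to each group. The control group (CON) received saline with no PQQ (0 mg/kg/day), the low-dose group (PQQ-L) 5 mg/kg/day and the high-dose group (PQQ-H) 10 mg/kg/day. RNA of hippocampal tissue was sequenced from 3 CON, 5 PQQ-L and 4 PQQ-H mice, one library each as labelled. No young group was included, so every value describes old animals only.

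Granule neurons are the principal excitatory cells of the dentate gyrus, the first relay of the hippocampal circuit, and their mossy fibre axons contact CA3 pyramidal neurons. The dentate gyrus is also one of the few regions of the adult rodent brain where neurons are added, from radial glia-like progenitors through dividing intermediates and doublecortin-positive neuroblasts to mature granule neurons, and this production falls steeply with age. In whole tissue, fewer cells of a type and less RNA per cell cannot be told apart, and neither can a different share of dentate gyrus in the dissected piece.

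The promoters of 3 of the genes are shown: C1ql2 and Dsp are the genes that varied most between libraries, and Prox1 encodes the transcription factor that defines the granule neuron. Each sequence is the 250 bases before the RefSeq transcription start in GRCm38.p6, read 5′ to 3′ on the gene's strand, with every E-box (CANNTG, the motif bound by basic helix-loop-helix factors such as Neurod1) in capitals. The regions are chr1:120340332-120340581 on the plus strand for C1ql2, chr1:190170828-190171077 on the minus strand for the first of the 2 listed starts of Prox1, and chr13:38151044-38151293 on the plus strand for Dsp.
C1ql2: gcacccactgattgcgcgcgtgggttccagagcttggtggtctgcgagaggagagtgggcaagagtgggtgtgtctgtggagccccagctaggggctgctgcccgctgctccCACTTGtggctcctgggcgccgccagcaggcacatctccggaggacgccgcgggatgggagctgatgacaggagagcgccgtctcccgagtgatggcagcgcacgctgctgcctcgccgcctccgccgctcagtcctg
Prox1: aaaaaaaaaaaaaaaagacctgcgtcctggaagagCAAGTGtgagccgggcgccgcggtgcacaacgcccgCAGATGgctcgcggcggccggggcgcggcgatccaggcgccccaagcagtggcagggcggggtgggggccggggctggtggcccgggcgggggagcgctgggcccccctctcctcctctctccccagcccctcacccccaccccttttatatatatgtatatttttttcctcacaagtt
Dsp: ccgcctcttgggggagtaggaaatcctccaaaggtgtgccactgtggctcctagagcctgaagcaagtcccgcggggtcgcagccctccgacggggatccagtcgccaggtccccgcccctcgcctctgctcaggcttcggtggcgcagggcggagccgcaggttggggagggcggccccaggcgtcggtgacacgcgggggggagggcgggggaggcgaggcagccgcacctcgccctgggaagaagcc
The C1ql2 window held 1 E-box, CACTTG. The Prox1 window held 2, CAAGTG (the same motif read on the other strand) and CAGATG, whereas the window of its second start held 0, as did that of Dsp. Over the other genes, CACTTG in either orientation was found once for C1ql3 and at 2 places for Stxbp6, and was not found for Trpc6, Dcx or Neurod1, of which Neurod1 held a CATATG. Among 32851 mouse promoters of the same length, 66.2% held a CANNTG, 11.6% held CACTTG or its complement, and 14.4% held CAGATG or its complement, both of which are forms of CANNTG. The motifs were chosen after the sequences had been seen. The match only describes the letters in these windows and was not tied to any measurement of binding.

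The libraries held 29654553 to 38179496 reads on genes (median 35168171), and all 19 within-group pairs differed by more than sampling noise. Hippocampal neuron markers were at unequal levels. The granule neuron gene Dsp read 0.0352 FPKM in CON 1, 0.083 in PQQ-H 1 and 0.142 in PQQ-H 2. The CA1 pyramidal neuron genes differed from each other. Wfs1 read at least 23.5 FPKM throughout, whereas Fibcd1 read 0.744 in CON 1, 4.14 in PQQ-H 1 and 2.92 in PQQ-H 2, against 18.7 in CON 2. In addition, 4 libraries stood apart: CON 1, CON 3, PQQ-H 1 and PQQ-H 2. Striatal medium spiny neurons were followed by 7 genes (Drd1, Adora2a, Ppp1r1b, Rgs9, Pde10a, Penk and Tac1). Their summed FPKM in these libraries was 2780, 1150, 2090 and 1160, respectively, against 36.5 to 160 in the other 8 libraries. The dopamine receptor gene Drd1 alone read 81.3, 33.6, 59.0 and 27.9 FPKM in these 4 and at most 4.73 elsewhere. A second set followed the groups instead: the summed FPKM of 7 choroid plexus genes was 1540 to 5420 in CON, 48.0 to 121 in PQQ-L and 20.5 to 33.9 in PQQ-H. The thyroxine carrier Ttr was its largest part except in PQQ-H 4, where Ttr read 12.8 FPKM and the choroid plexus gene Kl 14.0. Markers of neighbouring tissue were thus present at unequal levels in samples labelled hippocampus, and their part in the differences between groups was not tested beyond the values given beside each result.

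The granule neuron genes were low in the same few libraries of CON and PQQ-H and high in the rest, and all 3 groups overlapped for each of them. Prox1, the homeodomain factor needed to specify and keep granule neuron identity, is encoded on chromosome 1 (190118035 to 190170714, minus strand, GRCm38). It measured 1.5, 9.69 and 2.64 FPKM in the 3 CON libraries. In PQQ-L it measured 7.63, 9.90, 4.41, 7.09 and 10.8 FPKM, and in PQQ-H 3.12, 2.26, 13.2 and 9.35 FPKM. CON 1, CON 3 and both low PQQ-H libraries lay under every PQQ-L library, whereas CON 2, PQQ-H 3 and PQQ-H 4 lay among or above them. Prox1 exons overlap those of the antisense gene Prox1os, which read 1.58 to 7.72 FPKM, and whether counting used strand is not given in the sources used here, so reads of the pair cannot be separated with confidence.

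C1ql2 and C1ql3 encode secreted C1q-like proteins that granule neurons release from mossy fibre terminals, where they bind neurexins and kainate receptor subunits. C1ql2 (chromosome 1, 120340582 to 120343174, plus strand, GRCm38) measured 0.183, 36.8 and 5.29 FPKM in CON. The PQQ-L libraries held 24.1, 39.4, 14.5, 31.9 and 50.5 FPKM, and the PQQ-H libraries 1.21, 1.44, 68.2 and 35.4 FPKM. CON 1 rested on 13 reads and PQQ-H 3 on 4799, and the gene spanned 372-fold over the 12 libraries and 201-fold inside CON.

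C1ql3 (chromosome 2, 13003457 to 13011806, minus strand, GRCm38), which is also made by other forebrain neurons, had the same 4 lowest libraries over a narrower range, with CON 3 and PQQ-H 2 in the opposite order. It measured 4.89, 46.0 and 17.3 FPKM in CON and 39.2, 41.0, 41.8, 53.0 and 67.1 FPKM in PQQ-L. In PQQ-H it measured 7.51, 22.1, 59.4 and 43.1 FPKM. The ratio of C1ql3 to C1ql2, computed within each library, ran from 0.871 in PQQ-H 3 to 26.7 in CON 1. It was 3.27 in CON 3, 6.21 in PQQ-H 1 and 15.4 in PQQ-H 2, and between 1.04 and 2.89 in the PQQ-L libraries, so the proportion of the partners shifted along with their level.

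Dsp encodes desmoplakin, a desmosomal linker that within the brain is a selective granule neuron transcript, and lies on chromosome 13 (38151294 to 38198577, plus strand, GRCm38). It measured 0.0352, 3.89 and 0.859 FPKM in CON and 2.98, 3.08, 0.303, 3.68 and 4.43 FPKM in PQQ-L. The PQQ-H libraries held 0.083, 0.142, 6.15 and 4.26 FPKM. PQQ-L 3 was the lowest PQQ-L library for 5 of the 6 granule neuron genes (Prox1, Dsp, C1ql2, Stxbp6 and Trpc6), and for Dsp (104 reads) it also lay under CON 3. Its C1ql3 of 41.8 FPKM and Neurod1 of 5.18 FPKM sat inside the range of the other PQQ-L libraries. Of 10 other granule neuron genes, 6 were lowest of the 5 PQQ-L libraries in PQQ-L 3 (Lct, Tdo2, Il16, Plk5, Glis3 and Dock10), with the largest fold gaps for Lct (lactase) at 0.932 and Tdo2 (tryptophan dioxygenase) at 0.94 FPKM. The other 4 were not, and Calb1 was near its highest there, at 63.1 FPKM.

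Stxbp6 encodes amisyn, a syntaxin-binding regulator of vesicle fusion, on chromosome 12 (44852484 to 45074709, minus strand, GRCm38). It measured 5.86, 22.3 and 10.2 FPKM in CON, 23.7, 24.4, 16.9, 22.9 and 29.3 FPKM in PQQ-L and 8.52, 12.8, 31.5 and 24.2 FPKM in PQQ-H. Trpc6 encodes a diacylglycerol-gated cation channel, on chromosome 9 (8544142 to 8680741, plus strand, GRCm38). It measured 0.329, 2.36 and 1.29 FPKM in CON, 1.91, 2.92, 1.83, 2.93 and 3.44 FPKM in PQQ-L and 1.04, 1.18, 3.65 and 2.70 FPKM in PQQ-H. For both genes CON 2 was the only CON library inside the PQQ-L range, and PQQ-H 1 and PQQ-H 2 lay below it.

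**Figure D1:**
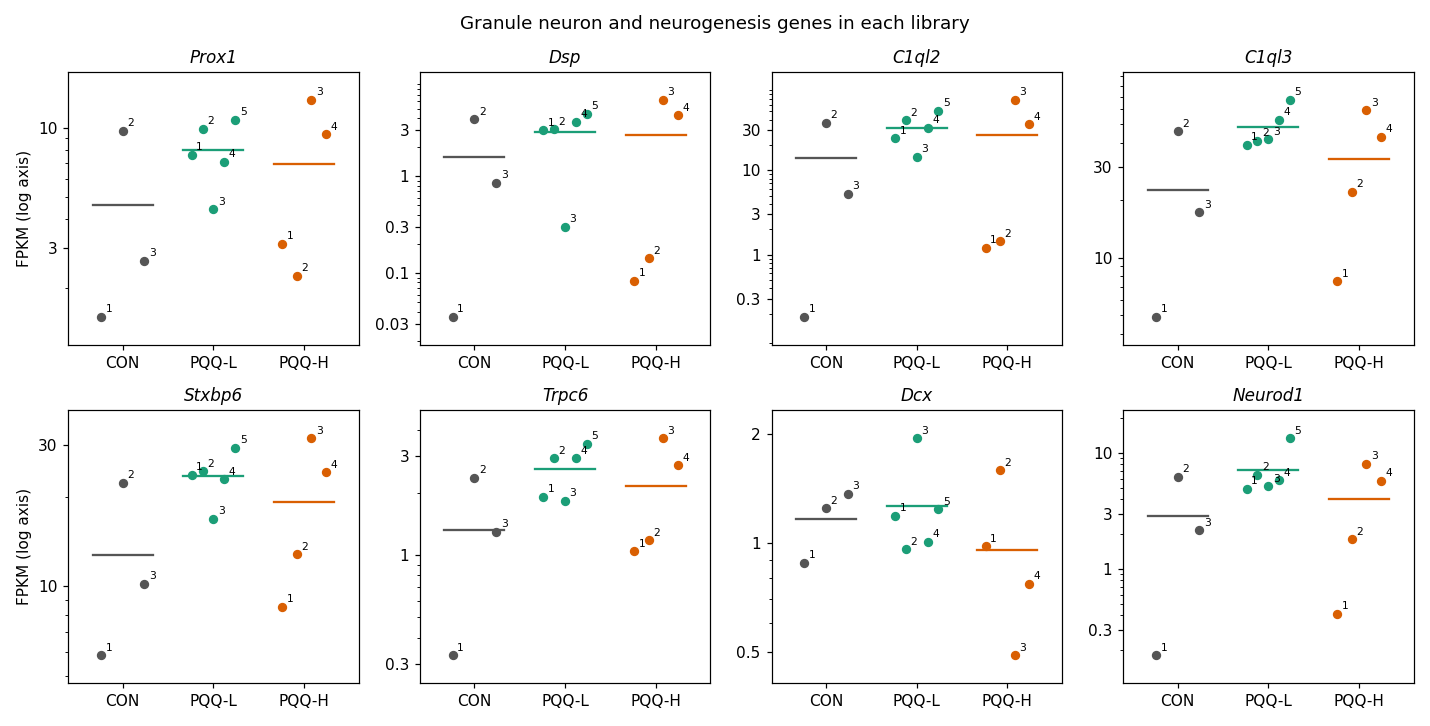
FPKM of each of the 8 genes (log axis, a separate scale for each gene) in the 3 CON, 5 PQQ-L and 4 PQQ-H libraries; each point is 1 library with its replicate number, and each line is the group mean. For every gene but Dcx, CON 1 is the lowest point, PQQ-H is split into 2 low and 2 high libraries, and no pair of groups is free of overlap.

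The neurogenesis genes parted from each other. Neurod1, a basic helix-loop-helix factor needed for survival and maturation of newborn granule neurons and still made by mature ones, lies on chromosome 2 (79452521 to 79456751, minus strand, GRCm38) and overlaps exons of Cerkl on the same strand, which read 0.128 to 1.10 FPKM. Neurod1 measured 0.180, 6.24 and 2.15 FPKM in CON and 4.93, 6.52, 5.18, 5.80 and 13.4 FPKM in PQQ-L. In PQQ-H it measured 0.410, 1.80, 8.07 and 5.78 FPKM. The 4 lowest libraries for Neurod1 were those of Prox1, C1ql2, C1ql3, Stxbp6 and Trpc6, and PQQ-L 5 was the highest, as for C1ql3.

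Dcx encodes doublecortin, the microtubule-associated protein of migrating neuroblasts and immature neurons, and lies on the X chromosome (143855842 to 143933311, minus strand, GRCm38). It measured 0.881, 1.25 and 1.37 FPKM in CON and 1.19, 0.963, 1.95, 1.01 and 1.24 FPKM in PQQ-L. In PQQ-H it measured 0.981, 1.59, 0.490 and 0.771 FPKM. PQQ-H 3 and PQQ-H 4, which lay within or above the PQQ-L range for every granule neuron gene, were the lowest libraries for Dcx, and PQQ-L 3, which was low for Dsp, was the highest. Dcx spanned 3.98-fold over the 12 libraries, on 161 to 652 reads, against 74.4-fold for Neurod1. The ratio of Neurod1 to Dcx ran from 0.205 in CON 1 to 16.5 in PQQ-H 3.

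The within-group spread of these genes was large compared with other genes. The within-group SD of log2(FPKM + 0.1) was 2.44 for C1ql2, 2.16 for Dsp, 1.55 for Neurod1, 1.09 for C1ql3, 0.99 for Prox1, 0.82 for Trpc6, 0.70 for Stxbp6 and 0.47 for Dcx, and its median over all genes tested was 0.21. For C1ql2, 99.9% of the genes tested varied less within groups, and for Dcx 84.9% did. The share of a gene's variance that lay between the groups was 11.2% for Dsp and 32.6% for Stxbp6, the lowest and highest of the 8, with a median of 27.2% over all genes tested.

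The order of libraries was shared with the striatal genes in reverse. The 4 libraries highest in striatal genes were the 4 lowest for Prox1, C1ql2, C1ql3, Stxbp6, Trpc6 and Neurod1; for Dsp, PQQ-L 3 took the place of CON 3, and Dcx followed another order. Among all genes tested, 14.3% (1971 of 13796) had these 4 libraries under the other 8. Pyramidal neuron genes followed in part. Lower in all 4 were 2 of 6 CA1 genes (Fibcd1 and Man1a), 1 of 5 CA2 (Amigo2) and 1 of 3 CA3 (Iyd). Higher in all 4 were 1 CA2 gene (Pcp4) and 1 CA3 gene (Coch), as were all 7 striatal genes. Which cells Pcp4 and Coch came from was not tested. The low values were therefore not particular to granule neuron genes. The summed FPKM of the 6 granule neuron genes was 12.8 in CON 1, 21.5 in PQQ-H 1, 37.6 in CON 3 and 39.9 in PQQ-H 2. In the other 8 libraries it lay between 79.8 and 182, with CON 2 at 121. General neuronal genes (Snap25, Rbfox3, Syt1, Stmn2 and Eno2) separated the same libraries over a narrower range, with sums of 1270 in CON 1, 1320 in CON 3, 1370 in PQQ-H 1 and 1390 in PQQ-H 2 against 1550 to 1670 FPKM in the other 8. Of these 5 genes, 3 (Snap25, Syt1 and Stmn2) were lower in all 4 libraries than in the other 8.

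**Figure D2:**
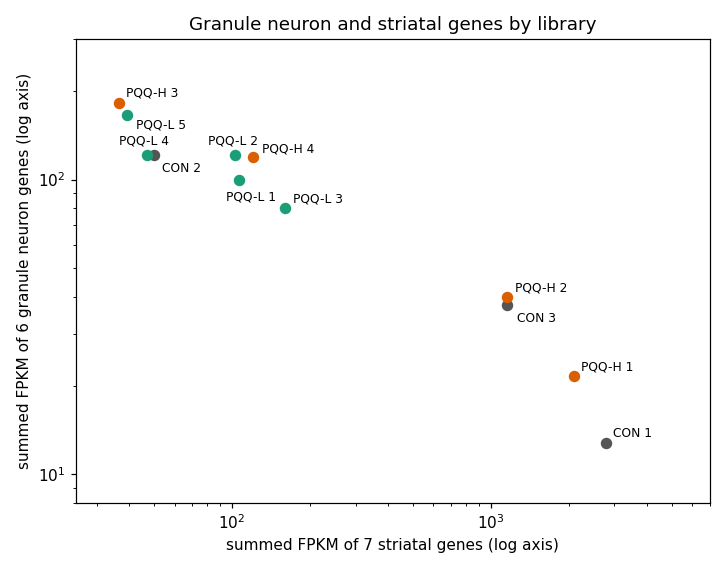
Summed FPKM of the 6 granule neuron genes against summed FPKM of 7 striatal genes (both log axes), 1 point per library, coloured by group (grey CON, green PQQ-L, orange PQQ-H). CON 1, CON 3, PQQ-H 1 and PQQ-H 2 lie at the lower right, with striatal sums of at least 1150 and granule sums of at most 39.9, and all 5 PQQ-L libraries lie at the upper left.

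Other genes of granule neurons, taken from a list that did not include the 8, did not all follow them. Of 10 such genes, 4 (Tdo2, Lct, Il16 and Rfx3) were lower in the 4 libraries than in the other 8. Lct was listed at 0 FPKM in CON 1 and read 0.0193 in CON 3, 0.0369 in PQQ-H 1 and 0.07 in PQQ-H 2, against 0.932 to 13.2 in the rest. Pdyn (prodynorphin), which is shared by granule and striatal neurons, went the other way, with 53.8, 25.5, 36.3 and 42.9 FPKM in the 4 and 3.52 to 9.20 in the rest. Calb1 (calbindin), another gene of both cell types, stayed between 35.7 and 63.9 FPKM throughout. The summed FPKM of this list, 80.7 to 122, did not separate the libraries. Of the 10, 9 reached the expression minimum and 0 passed the adjusted test in any comparison; the smallest p was that of Tdo2 in PQQ-L vs. CON (log2FC 2.39, limma adjusted p = 0.237) and of Smad3, a transducer of TGF-beta signals, in PQQ-H vs. CON (0.37, adjusted p = 0.618).

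**Figure D3:**
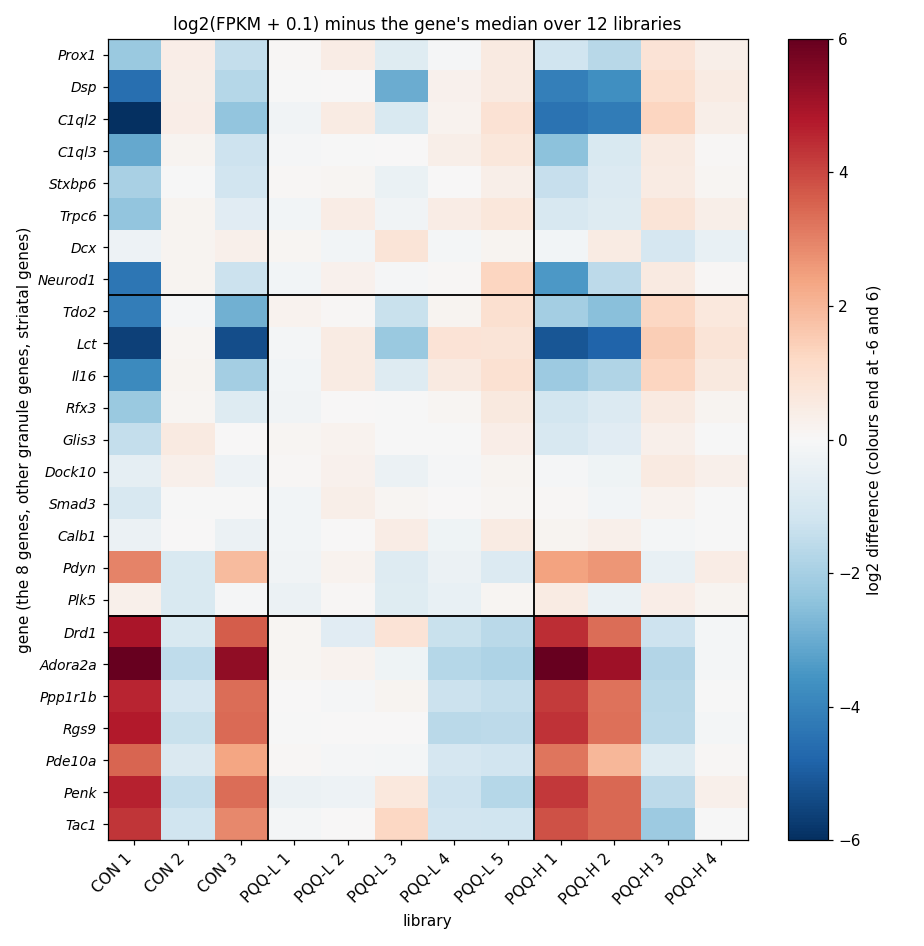
log2(FPKM + 0.1) of the 8 genes, 10 other granule neuron genes and 7 striatal genes (rows, separated by lines) in the 12 libraries (columns, groups separated by lines), as the difference from each gene's median; blue is lower, red is higher, and colours end at -6 and 6. CON 1, CON 3, PQQ-H 1 and PQQ-H 2 are blue for 7 of the 8 genes, Dcx being the exception, and red for the striatal genes and Pdyn.

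In PQQ-L vs. CON, all 8 genes had a higher mean log2 level in PQQ-L, and none passed the test. C1ql2 was higher by 2.95 on the log2(FPKM + 0.1) scale (SE 1.58, 95% confidence interval -0.52 to 6.41, limma adjusted p = 0.269), with group means of 32.1 ± 13.8 FPKM (SD, n = 5) and 14.1 ± 19.8 FPKM (SD, n = 3). Stxbp6 had the smallest adjusted p of the 8, with a log2FC of 1.06 (SE 0.453, interval 0.07 to 2.05, limma adjusted p = 0.237, exact permutation p = 0.0714), from 12.8 ± 8.53 FPKM (n = 3) to 23.4 ± 4.44 FPKM (n = 5). Intervals just above 0 were also found for C1ql3, with a log2FC of 1.58 (0.03 to 3.13, adjusted p = 0.24), and Trpc6, with 1.21 (0.03 to 2.38, adjusted p = 0.24). The differences of Prox1 (1.14, adjusted p = 0.28), Neurod1 (2.09, adjusted p = 0.25) and Dsp (1.53, adjusted p = 0.47) had intervals that included 0.

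Dcx differed by 0.09 between PQQ-L and CON (SE 0.318, interval -0.61 to 0.79, limma adjusted p = 0.861), with means of 1.27 ± 0.399 FPKM (n = 5) and 1.17 ± 0.256 FPKM (n = 3). This interval was the narrowest of the 8, and that of C1ql2 was the widest. Without CON 1 the Dcx difference was -0.08, and without PQQ-L 3 it was -0.07. Neurod1, by comparison, averaged 7.17 ± 3.55 FPKM in PQQ-L (n = 5) and 2.86 ± 3.09 FPKM in CON (n = 3).

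Counted at the thresholds of the study (|log2FC| above 1 and adjusted p below 0.05), 0 of 8 genes were called in PQQ-L vs. CON by limma, where 0.471% of all genes tested were called, and 0 of 8 passed the adjusted p alone, where 0.587% did. At an unadjusted p below 0.05 it was 3 of 8 (C1ql3, Stxbp6 and Trpc6) against a background of 20.5%. In 0 of 8 did the groups not overlap, against 10.6% of all genes tested. The median log2FC was 1.37 for the 8 genes and -0.03 for all genes, of which 46.1% were higher in PQQ-L. The smallest exact permutation p that 5 against 3 libraries can give is 0.0357, and the smallest reached was 0.0714. These p-values measure the spread between mice as labelled, with 1 library each.

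In PQQ-H vs. CON, 7 of 8 genes had a higher mean and Dcx a lower one, and the smallest limma adjusted p was 0.719. C1ql2 differed by 1.13 (SE 1.65, interval -2.50 to 4.75, limma adjusted p = 0.863), with 26.6 ± 32.1 FPKM in PQQ-H (SD, n = 4), and Trpc6 by 0.80 (SE 0.561, adjusted p = 0.719). Neurod1 differed by 0.72, C1ql3 by 0.69, Prox1 by 0.67, Stxbp6 by 0.62 and Dsp by 0.38. Dcx differed by -0.34 (SE 0.333, interval -1.07 to 0.38, adjusted p = 0.793), with 0.957 ± 0.466 FPKM in PQQ-H (n = 4). Of the 8, 0 were called (background 0.819%), 0 passed the adjusted p alone (background 1.09%), 0 had an unadjusted p below 0.05 (background 9.73%) and 0 had groups without overlap (background 7.08%). The median log2FC was 0.68, against -0.03 for all genes, of which 44.4% were higher. With 4 against 3 libraries an exact permutation test cannot go below 0.0571. Without CON 1 the differences turned to -0.90 for Dsp, -0.75 for C1ql2, -0.14 for C1ql3 and -0.53 for Neurod1, and without PQQ-H 3 or PQQ-H 4 that of Dsp turned to -0.47 or -0.30.

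In PQQ-H vs. PQQ-L, the comparison that bears on dose, all 8 genes had a lower mean in PQQ-H. The differences ran from -0.41 for Trpc6 to -1.82 for C1ql2 (SE 1.45, interval -5.0 to 1.36), with limma adjusted p-values of 0.60 to 0.746. Dcx, at -0.43 (SE 0.292, interval -1.07 to 0.21), and Neurod1, at -1.37 (SE 0.925, interval -3.40 to 0.66), had an adjusted p of 0.60 each. Again 0 of 8 were called at both thresholds (background 0%), 0 at the adjusted p alone (background 0%), 0 at an unadjusted p below 0.05 (background 8.15%), and 0 were without overlap (background 4.76%). The median log2FC was -0.68, against -0.02 for all genes, of which 45.7% were higher in PQQ-H. Without the 4 libraries highest in striatal genes, 7 of the 8 differences turned positive, from 0.04 for Neurod1 to 1.17 for Dsp. The 3 comparisons share libraries, so their directions are not separate observations.

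**Figure D4:**
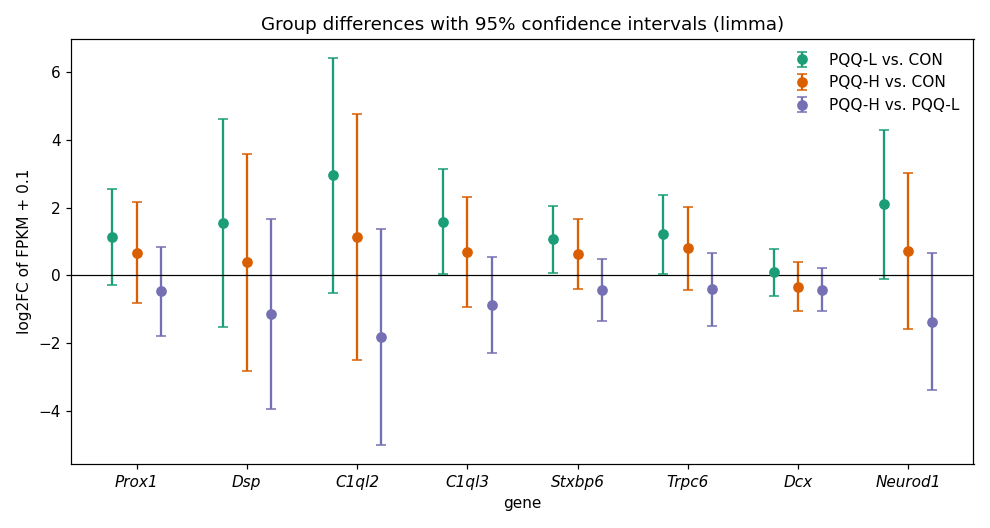
log2FC of log2(FPKM + 0.1) for the 8 genes (points) with 95% confidence intervals from limma (bars) in PQQ-L vs. CON (green), PQQ-H vs. CON (orange) and PQQ-H vs. PQQ-L (purple). Only the PQQ-L vs. CON intervals of C1ql3, Stxbp6 and Trpc6 lie above 0, and the intervals of Dcx are the narrowest.

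The size of the PQQ-L vs. CON differences rested on which CON libraries were used. Without CON 2, the CON library with low striatal genes, the differences were 1.88 for Prox1 (adjusted p = 0.0488), 2.35 for C1ql3 (adjusted p = 0.0395), 1.56 for Stxbp6 (adjusted p = 0.0353) and 1.77 for Trpc6 (adjusted p = 0.0418), and these 4 genes were then called by limma. The share of all genes called in that fit was not counted, so this count has no background and is not a result about these genes. Without CON 1, the CON library lowest in granule neuron genes, they were 0.58 for Prox1, 0.75 for C1ql3, 0.61 for Stxbp6, 0.50 for Trpc6, 1.07 for C1ql2, 0.84 for Neurod1 and 0.25 for Dsp, with adjusted p-values of 0.863 to 0.973. With a striatal score (the mean log2(FPKM + 0.1) of the 7 striatal genes) as a covariate, an alternative added after seeing the data, the PQQ-L vs. CON difference was -0.05 for Prox1, 0.02 for C1ql2, 0.29 for C1ql3, 0.20 for Stxbp6, 0.26 for Trpc6, -0.96 for Dsp, 0.31 for Neurod1 and 0.34 for Dcx. Without the 4 libraries highest in striatal genes, also added afterwards, CON 2 was compared alone with PQQ-L on the assumption that it varies like the other groups. The differences were then -0.34 for Prox1, -0.32 for C1ql2, -0.78 for Dsp and -0.02 for Dcx, and 0.04 for C1ql3, 0.05 for Stxbp6, 0.09 for Trpc6 and 0.09 for Neurod1. The smallest limma adjusted p over both added fits was 0.813 in PQQ-L vs. CON.

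**Figure D5:**
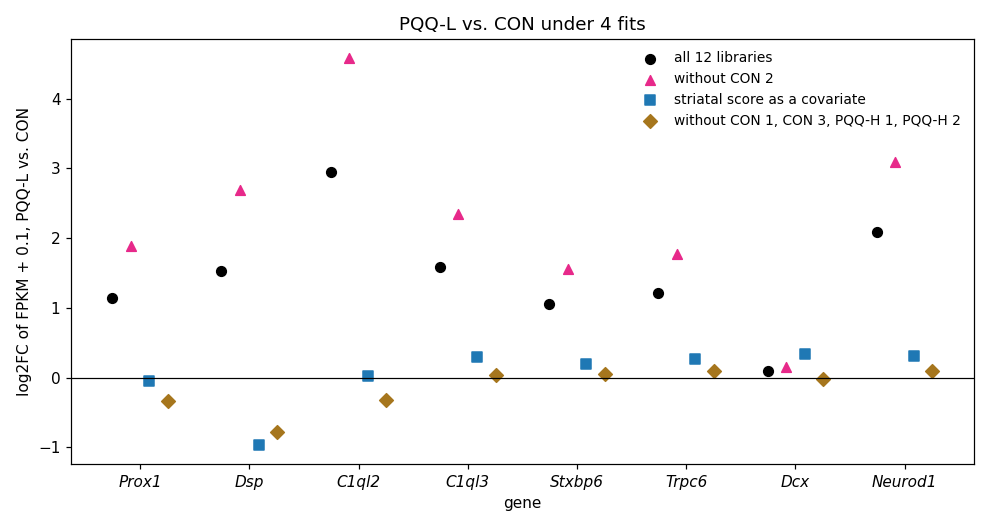
log2FC of log2(FPKM + 0.1) in PQQ-L vs. CON for the 8 genes under 4 fits: all 12 libraries (black circles), without CON 2 (pink triangles), with the striatal score as a covariate (blue squares), and without CON 1, CON 3, PQQ-H 1 and PQQ-H 2 (brown diamonds). For C1ql2 the value is 2.95 with all libraries, 0.02 with the covariate and -0.32 without the 4 libraries, while Dcx lies between -0.02 and 0.34.

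The library names carry the letter L or R, whose meaning the labels do not explain, and the differences were recomputed within each. Among the libraries named L, the C1ql2 difference was 1.51 in PQQ-L vs. CON (2 against 2 libraries) and -1.45 in PQQ-H vs. CON (3 against 2). Among those named R, where CON 1 is the only CON library, the C1ql2 differences were 6.41 for PQQ-L (3 libraries) and 6.97 for PQQ-H (1 library). Dcx differed by -0.21 and 0.52 in PQQ-L and by -0.46 and -0.17 in PQQ-H within L and R, respectively. The direction of PQQ-H vs. CON thus depended on the letter for C1ql2, as it did for Dsp (-1.59 within L and 5.01 within R), Neurod1 (-0.92 and 4.39), C1ql3 (-0.39 and 3.11), Prox1 (-0.15 and 2.56) and Trpc6 (-0.07 and 2.71). For Stxbp6 the difference was 0.00 within L and 2.03 within R.

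Genes that act before and around Dcx and Neurod1 in the making of new neurons were measured from the same libraries. Of 6 progenitor genes (Sox2, Nes, Hopx, Hes5, Neurog2 and Eomes), 4 reached the expression minimum and 0 passed the adjusted test in any comparison. Hopx, a gene of quiescent radial glia-like progenitors, had the smallest p in PQQ-L vs. CON (log2FC 0.48, limma adjusted p = 0.336), and the progenitor factor Sox2 differed by 0.00 and -0.13 in PQQ-L and PQQ-H against CON. These are whole-tissue values, and the share of this RNA that came from progenitors was not measured. Of 6 proliferation genes, 2 reached the minimum and 0 passed. Mcm2, a subunit of the replicative helicase, differed by -0.32 in PQQ-L (adjusted p = 0.302) and by -0.53 in PQQ-H (adjusted p = 0.422). The division marker Mki67 did not reach the minimum, with at most 0.239 FPKM.

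Of 8 immature neuron genes, 7 were tested and 0 passed. Dpysl3, a collapsin response mediator of growing axons, had a log2FC of 0.54 in PQQ-L vs. CON (adjusted p = 0.266), and Tubb3, the neuronal beta-tubulin, one of -0.31 in PQQ-H vs. CON (adjusted p = 0.429). Calb2 (calretinin), which marks immature granule neurons but also interneurons and mossy cells, read 79.6 FPKM in PQQ-L 3, the library with the highest Dcx, and 48.2 in CON 2, against 4.62 to 28.4 in the other 10. Eomes, the gene of intermediate progenitors, was read above 0.0308 FPKM only in CON 2 (0.484), PQQ-L 3 (0.439) and PQQ-L 5 (0.397).

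The partners and relatives of the 8 genes were described in the same way. Of 6 genes for proteins that bind the C1ql family or sit at mossy fibre synapses (Adgrb3, Nrxn2, Nrxn3, Grik2, Grik4 and Grik5), 6 had a higher mean in PQQ-L than in CON and 0 passed the adjusted test. The kainate receptor gene Grik2 had the smallest p of the list in PQQ-L vs. CON (log2FC 0.36, adjusted p = 0.20) and in PQQ-H vs. CON (0.32, adjusted p = 0.389). Of 12 relatives, 10 were tested and 0 passed. Trpc4 and Trpc5, channels of the same family as Trpc6, had log2FC values of 1.62 (adjusted p = 0.247) and 1.54 (adjusted p = 0.24) in PQQ-L vs. CON. Neurod2 and Neurod6, the factors of mature excitatory neurons, had 1.63 (adjusted p = 0.244) and 2.10 (adjusted p = 0.249), and Dclk1, the closest relative of Dcx, 0.25 (adjusted p = 0.253). Of the 12 relatives, 4 (Trpc4, Trpc5, Neurod2 and Neurod6) were lower in the 4 striatal-rich libraries than in the other 8, and 1 was higher, Dclk3, with 18.0 to 34.7 against 4.86 to 10.3 FPKM (log2FC -0.95 in PQQ-L vs. CON, adjusted p = 0.305). Of the 6 partners, 2 (Nrxn3 and Grik4) were lower in these 4 and 0 were higher.

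Among marker lists of other cell types, the genes that passed the adjusted test were those of tissue lining the ventricles and brain surface. Of 7 choroid plexus genes, 5 fell in PQQ-L (Ttr, Folr1, Kcne2, Clic6 and Aqp1) and 6 in PQQ-H (those and Otx2), with Ttr at -5.38 (limma adjusted p = 2.92e-04) and -7.24 (adjusted p = 4.57e-05). Col1a1 of the meninges fell in both comparisons, and Col1a2, Igf2 and the ependymal genes Foxj1 and Dynlrb2 fell in PQQ-H. The lists for CA1 neurons (smallest adjusted p 0.229, Fibcd1), striatal neurons (0.247, Pde10a) and neurons in general (0.233, Snap25) held 0 genes past the test in PQQ-L vs. CON. The same was true in all 3 comparisons of the lists for CA2, CA3, thalamic, cortical and subventricular neurons, interneurons, oligodendrocyte precursors and endothelium, among which the thalamic genes came nearest (Tcf7l2 in PQQ-L, adjusted p = 0.186, and Lef1 in PQQ-H, adjusted p = 0.193). The choroid plexus sums of PQQ-H 1 and PQQ-H 2 were 20.5 and 33.9 FPKM beside granule neuron sums of 21.5 and 39.9, and those of PQQ-H 3 and PQQ-H 4 were 30.6 and 27.2 beside 182 and 119. In CON, the library with the lowest choroid plexus sum (CON 2, 1540) had the highest granule neuron sum. The other CON libraries did not continue that order. CON 3 had a choroid plexus sum of 5420 beside a granule neuron sum of 37.6, and CON 1 had 3670 beside 12.8.

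The genes whose level most resembled these profiles over the 12 libraries were found by Pearson correlation of log2(FPKM + 0.1), as a description with no test, since all genes of a library share its dissection and depth. For the mean of the 6 granule neuron genes, the 5 nearest were Cabp7 (r = 0.996), Gabra5 (0.995), Faah (0.994), Rnf182 (0.993) and Gm20754 (0.992), and 1161 genes had an r above 0.9. Cabp7 encodes a calcium-binding protein, Gabra5 the GABA-A receptor subunit typical of hippocampal neurons, and Faah the enzyme that degrades anandamide. Neurod1 itself had an r of 0.96 with this mean and Dcx one of -0.24. For Neurod1 the nearest were Fgd4 (0.991), Bhlhe22 (0.987), Gpc4 (0.986), Crk (0.984) and Gprin1 (0.984), with 905 genes above 0.9. For Dcx they were Dennd4c (0.961), Atp2b4 (0.95), Dcbld2 (0.95), Egfr (0.945) and Fat1 (0.94), with 9 genes above 0.9. Dcx therefore had few genes with a like profile, and the granule neuron genes had many.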

How the data were processed

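RNA from hippocampal tissue was extracted with TRIzol, made into libraries with the VAHTS Universal V10 RNA-seq kit and sequenced on an Illumina NovaSeq instrument. The authors filtered reads with fastp, aligned them with HISAT2, counted them with HTSeq-count and tested them with DESeq2, and they deposited FPKM per gene symbol. The labels name the build mm39. Software versions, annotation and strandedness are not given in the sources used here. Symbols were placed on GRCm38 with the GENCODE annotation, so the coordinates printed are not those of the authors' build.

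FPKM values were whole multiples of 1 read for 100% of 25563 genes above 0 in at least 2 libraries (tolerance 0.02), which gave read numbers. Genes averaging 0.5 FPKM or more were tested as log2(FPKM + 0.1) with limma 3.58.1 (R 4.3.3, trend), 1 fit of 12 libraries and Benjamini-Hochberg adjustment over 13796 genes. The scale understates changes of low genes. Two-sided exact permutation tests used scipy 1.17.1. On simulated data with 200 genes changed by 3 on the log2 scale in PQQ-H vs. CON, among 13796 genes, 197 were called, with 6 others. The simulated noise was drawn independently for each gene and library, so variation shared by many genes of a library was absent. The recovery was not counted separately for genes with a large within-group SD. Among the granule neuron and neurogenesis genes that SD ran from 0.47 for Dcx to 2.44 for C1ql2, against a median of 0.21. How often a change in genes this variable would be called was therefore not tested.

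Groups came from the labels. The 8 genes, the 22 lists (122 genes) and the rule for naming list genes (each gene with adjusted p below 0.05, otherwise the smallest p of a list, and the 5 nearest in profile) were chosen with earlier results of these data known. Genes named for their values outside that rule (Rfx3, Pdyn, Calb1, Il16, Lct, Plk5, Glis3, Dock10, Eomes, Calb2, Mki67, Top2a, Sox2, Wfs1, Man1a, Amigo2, Iyd, Pecam1, Nrxn3, Grik4, Syt1, Stmn2, Kl and the relatives) were chosen after their values were seen. Some list genes are not reported here and were left out of the lists. Alternatives were other pseudocounts, filters, scalings, covariates, voom on the recovered reads and each library left out.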

Additional observations from a re-analysis of the deposited data

Results flagged for a closer look

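Within the groups of 4 or 5 libraries, 16 checks for a single library far from the others gave 2 flags, and chance alone flags about 1 in 20 groups. Dsp in PQQ-L 3, at 0.303 FPKM, lay below the other 4 PQQ-L libraries by a gap of 0.84 of the group's range, over the critical value of 0.71. Neurod1 in PQQ-L 5, at 13.4 FPKM, lay above the other 4 by a gap of 0.722 of the range, over the same value. All 6 granule neuron genes were also highest of PQQ-L in PQQ-L 5, without a gap of that size.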

How the results depend on the processing

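Outside the fits that leave out a library, 12 other settings (pseudocounts of 0.01 and 1, a mean FPKM of at least 1, no filter, TPM, quantile normalization, median-of-ratios factors, the 2 groups alone, no trend, the name letter, the replicate block and voom on recovered reads) called 0 of the 8 genes in limma, with lowest adjusted p-values of 0.186 in PQQ-L vs. CON, 0.637 in PQQ-H vs. CON and 0.415 in PQQ-H vs. PQQ-L. Same-numbered libraries did not all deviate together (correlations of -0.619 to 0.717), and differently numbered ones ranged as widely (-0.765 to 0.785). These correlations cannot decide whether the numbers pair the mice. With the replicate block, Dsp in PQQ-H vs. CON was -0.12, and no other direction or call changed. Leaving out 1 library at a time called 0 to 4 genes in PQQ-L vs. CON (4 only without CON 2, where the share of all genes called was not counted) and 0 in the other comparisons. In PQQ-L vs. CON the log2FC ranged from 0.58 to 1.88 for Prox1, 1.07 to 4.58 for C1ql2, 0.25 to 2.69 for Dsp, 0.84 to 3.09 for Neurod1, 0.75 to 2.35 for C1ql3, 0.61 to 1.56 for Stxbp6, 0.50 to 1.77 for Trpc6 and -0.08 to 0.21 for Dcx, the last negative without CON 1 (-0.08) and without PQQ-L 3 (-0.07). In PQQ-H vs. CON it ranged from -0.90 to 1.54 for Dsp, -0.75 to 2.76 for C1ql2, -0.14 to 1.46 for C1ql3 and -0.53 to 1.72 for Neurod1, each lowest without CON 1; Dsp was also negative without PQQ-H 3 (-0.47) and PQQ-H 4 (-0.30). No sign turned in PQQ-H vs. PQQ-L. With the striatal score as a covariate, signs turned in PQQ-L vs. CON for Prox1 (-0.05) and Dsp (-0.96), in PQQ-H vs. CON for Dsp (-0.31), and in PQQ-H vs. PQQ-L for Prox1 (0.38), Dsp (0.65), C1ql2 (0.29), C1ql3 (0.04), Stxbp6 (0.18) and Trpc6 (0.28). Without the 4 libraries highest in striatal genes they turned in PQQ-L vs. CON for Prox1 (-0.34), Dsp (-0.78), C1ql2 (-0.32) and Dcx (-0.02), and in PQQ-H vs. PQQ-L for Prox1 (0.54), Dsp (1.17), C1ql2 (0.74), C1ql3 (0.09), Stxbp6 (0.26), Trpc6 (0.30) and Neurod1 (0.04). Both were chosen after seeing the data, called 0 genes, and the second leaves CON with 1 library. The cause of these changes was not tested. Only C1ql2, Dsp and Neurod1 fell to 12 to 16 reads, all in CON 1. Low numbers were also found in PQQ-H, with 28 (PQQ-H 1) and 44 (PQQ-H 2) reads for Dsp and 36 (PQQ-H 1) for Neurod1. The PQQ-L vs. CON log2FC of Dsp was 0.74 with a pseudocount of 1, 2.01 with 0.01 and 2.25 with voom. For C1ql2 it was 2.22, 3.14 and 3.31, respectively. The sizes for these low genes thus depended on the setting, and the part of depth was not tested.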

Other observations

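Of 6 proliferation genes, 2 (Mki67 and Top2a, both too low for the tests) were higher in the 4 libraries highest in striatal genes than in the other 8. These 4 also had the lowest granule neuron sums. The other 4 genes (Cdk1, Ccnb1, Mcm2 and Pcna) did not separate the libraries. Higher in the same 4 libraries were 1470 of the 13796 genes tested. So were 2 of 6 subventricular neuroblast genes (Dlx5 and Sp9) and 2 of 3 endothelial genes (Cldn5 and Pecam1). Which cells Mki67 and Top2a came from was not tested. Mki67 read 0.239 FPKM in CON 1, 0.134 in CON 3, 0.136 in PQQ-H 1 and 0.193 in PQQ-H 2, and at most 0.0281 in the other 8. Top2a read 0.602, 0.103, 0.239 and 0.689 FPKM in the same 4 and at most 0.06 in the rest. Dcx in these 4 libraries was 0.881, 1.37, 0.981 and 1.59 FPKM, inside the range of the other 8. Mki67 and Top2a were noticed after their values were seen, and no test was run on them.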
